A study of Mus musculus with 8 samples.

Results

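Mature migratory dendritic cells (DCs) were represented by 10 genes, picked by name: *Ccr7*, *Fscn1*, *Cd83*, *Cd200*, *Slco5a1*, *Mreg*, *Bcl2l14*, *Adcy6*, *Cacnb3* and *Apol7c*. All 10 were present among the 26939 genes of the deposited count tables. The 10 genes and the lists below were chosen with earlier results of these data known. Their counts beside the shares of all genes are therefore descriptions. When a conventional DC takes up cargo and is activated, it stops sampling its surroundings, raises MHC and costimulatory molecules, and moves along lymphatic vessels toward the draining lymph node. CCR7, the receptor for the chemokines CCL19 and CCL21, guides this movement, and fascin reshapes the actin of the cell into long protrusions. In tumors such cells are known for carrying antigen and for a mixed stimulatory and regulatory profile, with CD200 among the regulatory molecules.

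The genes were measured by bulk RNA-seq of tumor-associated macrophages (TAMs) of EO771 tumors, an orthotopic mouse breast cancer model, in female mice 8 to 14 weeks of age. The gate took live cells positive for CD45, CD11b and F4/80 and negative for Gr-1. WT C57BL/6J mice were compared with Unc93b1 3d/3d mice, whose mutated UNC93B1 leaves the endosomal receptors TLR3, TLR7 and TLR9 without function in every cell of the animal. Mice were either controls or received 100 µg of αMARCO, a rat antibody (clone ED31) against the scavenger receptor MARCO, on days 3, 6, 9 and 12, and all tumors were taken on day 21. The 4 groups, WT control, 3d/3d control, WT αMARCO and 3d/3d αMARCO, held 2 libraries each. The labels call the control mice untreated or name PBS, and the protocol names an isotype antibody, so what the control mice received is not settled. The study describes control samples as pooled from several mice, which hides the spread between animals, and p-values here measure only the spread between libraries.

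Library totals ran from 15182618 to 26411936 counts. The level of a gene is its CPM, a count scaled for library size by TMM, and 3 counts, the smallest amount taken as detected, came to 0.116 to 0.204 CPM. The label of 1 3d/3d control library gives its genotype as 3d/4d in another field. The 2 libraries of 3d/3d αMARCO stood apart from each other: over 16620 genes, the SD of the log2 difference between the libraries of a group was 1.01 there, against 0.435 to 0.579 in the other groups. *Unc93b1* was measured at 848 and 965 CPM in WT control and at 539 and 660 CPM in 3d/3d control, which does not test the genotype labels, because the 3d allele changes the protein and not the presence of the transcript. The sort antigens were present in all libraries (*Ptprc*, 791 to 1311 CPM; *Itgam*, 291 to 722 CPM; *Adgre1*, 331 to 720 CPM), and *Ly6g*, part of the Gr-1 antigen, was at 0.135 to 0.842 CPM. *Zbtb46* and *Flt3*, which define conventional DCs, were low but detected, at 1.84 to 28.5 CPM and 0.612 to 49.2 CPM, so the genes are described here as measured in a macrophage gate and not in purified DCs.

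**Figure D1:**
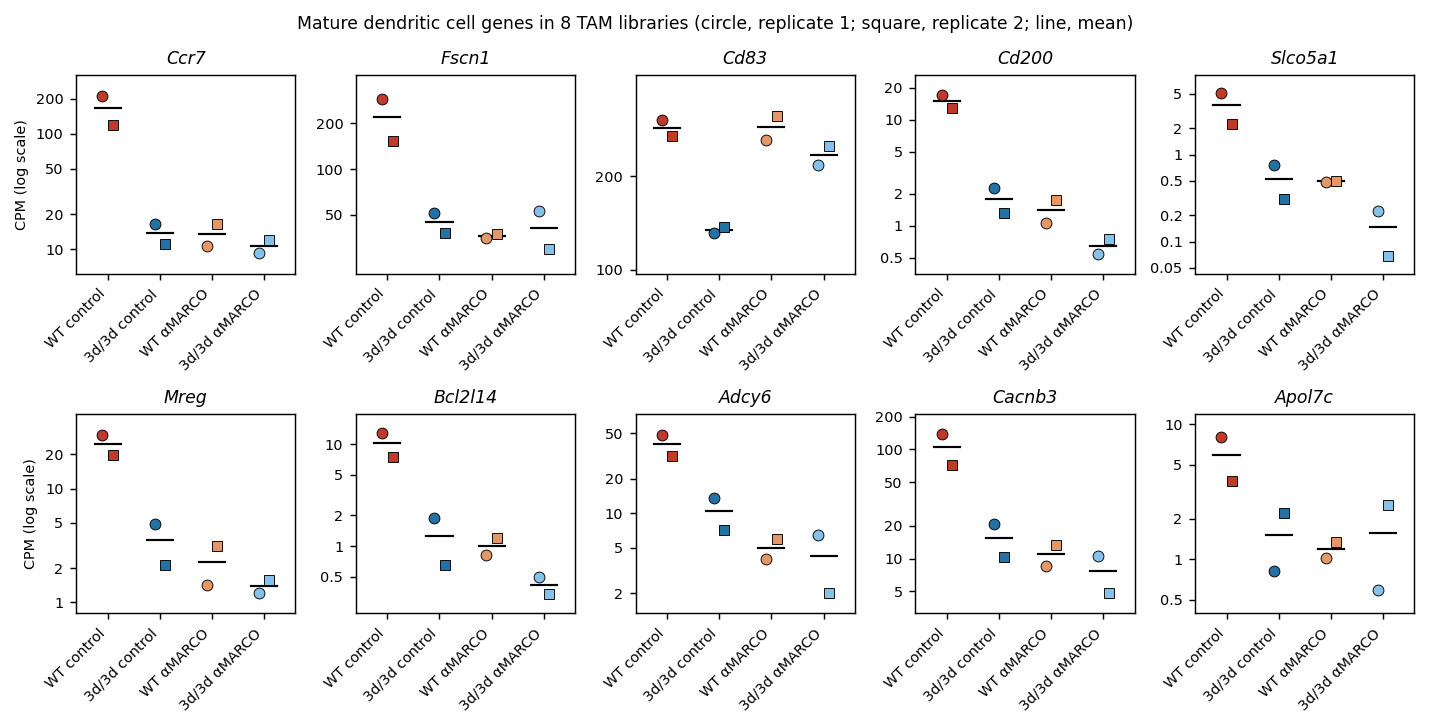
Level of each of the 10 genes in CPM (vertical axes, log scale, a separate range for each gene) in the 8 libraries, by group. Circles are replicate 1, squares are replicate 2 and lines are the mean of the 2. For 9 genes both WT control libraries lie above the other 6, while for *Cd83* the WT αMARCO libraries (261 and 313 CPM) lie beside WT control (304 and 269 CPM).

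*Ccr7* (chr11:99144196-99155077, GRCm38, minus strand), the receptor for CCL19 and CCL21, was measured at 214 and 119 CPM in WT control, 16.4 and 11.1 CPM in 3d/3d control, 10.6 and 16.5 CPM in WT αMARCO, and 9.25 and 12.0 CPM in 3d/3d αMARCO. The WT control libraries stood alone at the top, and the ranges of neighbouring groups among the other 3 overlapped. The lower WT control library was 7.18-fold above the highest of the other 6, the widest such gap among the 10 genes.

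*Fscn1* (chr5:142960343-142973185, plus strand) encodes fascin, the actin-bundling protein of DC protrusions. It was measured at 288 and 153 CPM in WT control, 51.7 and 38.1 CPM in 3d/3d control, 35.0 and 37.2 CPM in WT αMARCO, and 52.7 and 29.6 CPM in 3d/3d αMARCO. Again only WT control stood apart, and the other 3 groups overlapped with their neighbours in the order. Away from WT control, *Fscn1* kept a higher floor than *Ccr7*: per kilobase, the *Fscn1* level was 0.883 and 0.846 times the *Ccr7* level in the WT control libraries and 1.48 to 3.74 times in the other 6.

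*Cd83* (chr13:43784775-43803132, plus strand), which keeps MHC class II and CD86 at the cell surface and is also switched on in activated macrophages and lymphocytes, had another order. Its level was 304 and 269 CPM in WT control, 131 and 137 CPM in 3d/3d control, 261 and 313 CPM in WT αMARCO, and 218 and 251 CPM in 3d/3d αMARCO. WT control and WT αMARCO overlapped at the top, 3d/3d αMARCO came next without overlap, and 3d/3d control was lowest. Per kilobase, *Cd83* made up 30.4% and 41.1% of the summed level of the 10 genes in WT control, and 58.4% to 83.3% in the other libraries.

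*Cd200* (chr16:45382135-45409053, minus strand), the ligand of the inhibitory receptor CD200R1, was measured at 17.3 and 12.8 CPM in WT control, 2.26 and 1.32 CPM in 3d/3d control, 1.07 and 1.74 CPM in WT αMARCO, and 0.542 and 0.748 CPM in 3d/3d αMARCO. The last of these values rest on 12 and 11 counts. WT control was highest without overlap, 3d/3d control and WT αMARCO overlapped, and 3d/3d αMARCO was lowest without overlap.

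*Cacnb3* (chr15:98630840-98644529, plus strand), a beta subunit of voltage-gated calcium channels, was measured at 138 and 71.8 CPM in WT control, 20.7 and 10.4 CPM in 3d/3d control, 8.64 and 13.2 CPM in WT αMARCO, and 10.5 and 4.83 CPM in 3d/3d αMARCO. *Adcy6* (chr15:98589973-98610076, minus strand), a membrane enzyme that makes cyclic AMP, was measured at 48.3 and 31.7 CPM, 13.6 and 7.20 CPM, 4.03 and 5.98 CPM, and 6.45 and 2.04 CPM in the same order of groups. Both genes had their highest values in WT control and their lowest single value in replicate 2 of 3d/3d αMARCO. They lie 20763 bases apart on chromosome 15, on opposite strands, and their transcripts do not overlap.

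*Mreg* (chr1:72159442-72212307, minus strand), melanoregulin, which acts in the transport of lysosome-related organelles, was measured at 29.7 and 19.6 CPM in WT control, 4.90 and 2.13 CPM in 3d/3d control, 1.41 and 3.12 CPM in WT αMARCO, and 1.22 and 1.56 CPM in 3d/3d αMARCO. *Bcl2l14* (chr6:134396318-134438736, plus strand), a member of the BCL-2 family, was measured at 12.8 and 7.59 CPM, 1.88 and 0.660 CPM, 0.825 and 1.2 CPM, and 0.496 and 0.340 CPM in the same order of groups. For both, WT control was highest, 3d/3d control and WT αMARCO overlapped, and 3d/3d αMARCO lay below 3d/3d control without overlap. Against WT αMARCO, 3d/3d αMARCO overlapped for *Mreg* and was lower without overlap for *Bcl2l14*. An antisense gene that overlaps exons of *Bcl2l14*, *4933406J09Rik*, had 0 to 2 counts per library.

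*Slco5a1* (chr1:12866549-12992650, minus strand), a solute carrier of the organic anion transporter family, was the lowest: 98 and 41 counts in WT control (5.16 and 2.27 CPM), 12 and 6 counts in 3d/3d control (0.753 and 0.304 CPM), 10 and 13 counts in WT αMARCO (0.485 and 0.501 CPM), and 5 and 1 counts in 3d/3d αMARCO (0.226 and 0.0680 CPM). The last value is under the detection floor. *Apol7c* (chr15:77524852-77533316, minus strand), an apolipoprotein L of conventional DCs, was measured at 8.05 and 3.77 CPM in WT control, 0.816 and 2.18 CPM in 3d/3d control, 1.02 and 1.35 CPM in WT αMARCO, and 0.587 and 2.52 CPM in 3d/3d αMARCO. Its lowest WT control library was 1.5-fold above the highest of the other 6, the narrowest gap of the 9 genes whose WT control libraries ranked above all others.

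Of the 10 genes, 6 had an entry in the RefSeq promoter table (GRCm38.p6), and the 250 bases upstream of each start were searched for motifs of factors known in DC maturation or core promoters, since most of the genes moved together. The motifs, read on both strands except the last, were the NF-kB consensus (present in 7.25% of 32851 promoters), the cyclic AMP response element TGACGTCA (1.55%), AP-1 TGANTCA (6.75%), PU.1 GAGGAAGT (2.44%), the interferon response element read as GAAA, any 2 bases, then GAAA (2.98%) and, on the gene's strand, TATAAA (7.59%). *Fscn1* held TGACGTCA from 45 to 38 and TATAAA from 31 to 26 bases before its start. *Apol7c* held 2 overlapping matches to the interferon response element on its reverse strand, from 55 to 46 and from 49 to 40 bases before its start. *Cd200*, *Mreg*, *Bcl2l14* and *Cacnb3* held none of these letters in the window. The 120 bases before the start of the 2 genes with matches are shown 5′ to 3′ on the gene's strand, with the matched letters in capitals, at chr5:142960235-142960354 (plus strand) for *Fscn1* and chr15:77533316-77533435 (minus strand) for *Apol7c*.
Fscn1: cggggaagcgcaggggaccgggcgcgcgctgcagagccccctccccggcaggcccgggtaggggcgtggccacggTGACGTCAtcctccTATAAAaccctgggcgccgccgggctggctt
Apol7c: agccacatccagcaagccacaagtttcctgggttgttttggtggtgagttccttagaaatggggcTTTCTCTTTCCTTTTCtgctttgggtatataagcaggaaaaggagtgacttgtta
A match is a description of letters and does not show that a factor is bound there. The 2 genes shared none of the motifs as spelled here. The *Apol7c* letters also hold tatataag, a similar stretch that the exact letters TATAAA do not match.

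In control TAMs, all 10 genes were higher in WT than in 3d/3d, and 8 passed the test. *Ccr7* differed most, with a log2 fold change of 3.59 ± 0.44 (SE; n = 2 and 2; edgeR quasi-likelihood test, adjusted p = 0.0223), a 12.1-fold ratio of the group means. *Cd83* differed least, with 1.08 ± 0.10 and the smallest edgeR adjusted p of the 10 genes, 0.000251, a 2.14-fold ratio. Here and below, a gene is called where the p adjusted over all genes of the comparison did not exceed 0.05 and the log2 fold change was 0.5 or more in size. By this rule 6.58% of the 15600 genes tested were called higher in WT, and 33.2% had both WT control libraries above both 3d/3d control libraries, as did all 10 of the genes described. Their median log2 fold change was 2.79, against −0.0036 over all genes tested.

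The other called genes were *Cd200* (3.07 ± 0.30), *Bcl2l14* (3.02 ± 0.48), *Slco5a1* (2.82 ± 0.57), *Mreg* (2.82 ± 0.41), *Adcy6* (1.94 ± 0.37) and *Apol7c* (1.93 ± 0.53). *Cacnb3* and *Fscn1* did not pass, although their differences were of similar size: 2.75 ± 0.60 (edgeR adjusted p = 0.0870) and 2.28 ± 0.42 (adjusted p = 0.0505). DESeq2 called all 10, against 5.98% of all genes called higher in WT, with adjusted p of 0.000585 for *Cacnb3* and 9.64e-05 for *Fscn1*. Without replicate 1 of WT control, 8 were called, with *Fscn1* gained and *Apol7c* lost (adjusted p = 0.0827), and 6.13% of all genes were called higher. Without replicate 2 of WT control, 9 were called, with *Fscn1* gained, and 6.77% of all genes. Without 3d/3d control replicate 1, *Ccr7* (adjusted p = 0.233) and *Apol7c* (0.128) were lost, and without replicate 2, *Ccr7* (0.219) and *Slco5a1* (0.0512), by the edgeR test with the lone library assumed to vary like the others. In these fits 5.11% and 5.79% of all genes were called higher.

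**Figure D2:**
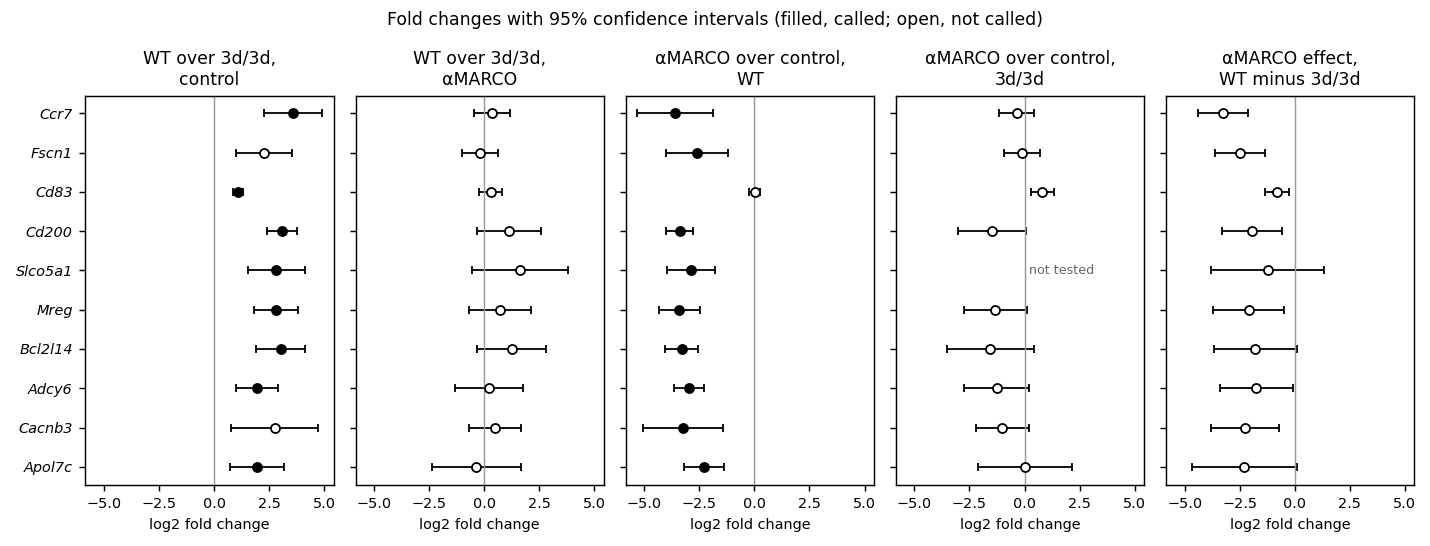
Log2 fold changes (horizontal axes) with their 95% confidence intervals for the 10 genes in the 4 comparisons and in the difference between the αMARCO effects. Filled points are called and open points are not. In the comparison of control TAMs all points lie between 1.08 and 3.59, and in WT TAMs after αMARCO all points but *Cd83* lie between −3.6 and −2.30.

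In WT TAMs, αMARCO was compared with control to ask what the antibody changed. 9 of the 10 genes were called lower after αMARCO, with 11.8% of 15630 genes called lower in this comparison. The 9 genes also had both αMARCO libraries below both control libraries, which held for 36.8% of all genes. The log2 fold change was −3.6 ± 0.50 for *Ccr7* (edgeR adjusted p = 0.0291), −3.40 ± 0.38 for *Mreg*, −3.39 ± 0.27 for *Cd200* (adjusted p = 7.84e-05), −3.30 ± 0.34 for *Bcl2l14*, −3.24 ± 0.53 for *Cacnb3*, −2.98 ± 0.27 for *Adcy6*, −2.89 ± 0.49 for *Slco5a1*, −2.60 ± 0.42 for *Fscn1* and −2.30 ± 0.40 for *Apol7c*. *Cd83* had a log2 fold change of 0.011, with a 95% confidence interval from −0.22 to 0.25. The median over the 10 genes was −3.11, against −0.012 over all genes tested. The interval of *Cd83* and the intervals of the other 9, of which the nearest to 0 ended at −1.18 (*Fscn1*), did not overlap.

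The WT control libraries enter both this comparison and the comparison of genotypes in control TAMs, so the 2 sets of fold changes are not independent. Without replicate 1 or without replicate 2 of WT control, 9 genes were called lower, with 10.9% and 12.8% of all genes. With WT αMARCO replicate 1 or replicate 2 left out, 6 were called, and the share of all genes called lower was 6.94% and 8.66% in place of 11.8%. *Ccr7*, *Fscn1* and *Cacnb3* then had edgeR adjusted p of 0.178 to 0.296, with log2 fold changes of −3.97 to −2.55.

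In 3d/3d TAMs, none of the 9 genes tested was called between αMARCO and control, nor was any of 15428 genes (0%), by the edgeR test. *Slco5a1*, with 1 to 12 counts in these 4 libraries, was too low to be tested. At an unadjusted p under 0.05, edgeR gave 1 of the 9 genes and 744 of all genes, and DESeq2 called 0 of the same 9 genes and 60 genes in all (0.389%). The 1 gene was *Cd83*, with a log2 fold change of 0.81 ± 0.22 (95% confidence interval 0.28 to 1.35, unadjusted p = 0.0098 and adjusted p = 0.823 in the edgeR test across all genes), and both αMARCO libraries (218 and 251 CPM) were above both control libraries (131 and 137 CPM). *Bcl2l14* had −1.55 ± 0.80, *Cd200* −1.46 ± 0.64, *Mreg* −1.33 ± 0.58, *Adcy6* −1.27 ± 0.60 and *Cacnb3* −1.0 ± 0.50, each with an interval that reached 0. *Ccr7* (−0.36 ± 0.32), *Fscn1* (−0.12 ± 0.33) and *Apol7c* (0.027 ± 0.88) were nearer to 0. The groups did not overlap for 6 of the 10 genes, 5 lower and *Cd83* higher after αMARCO, where 19.2% of all genes were lower and 19.7% higher in this way.

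The calls in 3d/3d changed when 1 of the 3d/3d αMARCO libraries was left out. Without replicate 1 of that group, 4 of the genes were called by edgeR, *Cd83* higher (0.92, adjusted p = 1.31e-06) and *Adcy6* (−2.32), *Cacnb3* (−1.66) and *Fscn1* (−0.59) lower, but 5500 genes (34.1%) were called in all. Without replicate 2, only *Cd83* was called (0.70, adjusted p = 0.000163), with 571 genes in all (3.41%). *Cd83* was the gene called in either case.

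Between the genotypes after αMARCO, none of the 10 genes was called, nor was any of 15722 genes (0%), by edgeR. At an unadjusted p under 0.05, edgeR gave 0 of the 10 genes and 1076 of all genes, and DESeq2 called 0 of the 10 genes and 215 genes (1.37%). The log2 fold changes of WT over 3d/3d ran from −0.35 ± 0.79 (*Apol7c*) to 1.63 ± 0.84 (*Slco5a1*), with 8 above 0 and a median of 0.43. The value of *Slco5a1* rests on 10 and 13 counts in WT and on 5 and 1 counts in 3d/3d, the last under the detection floor, and is not an exact size. For *Ccr7* the value was 0.36 ± 0.32 with a 95% confidence interval from −0.45 to 1.17, which ends below the interval of the control comparison (2.26 to 4.92). 4 of the 10 genes had both WT libraries above both 3d/3d libraries, as did 22.1% of all genes. Without 3d/3d αMARCO replicate 1, *Adcy6* (1.31) and *Cacnb3* (1.19) were called, 2 of 10 where 38.6% of all genes were called, and without replicate 2, *Fscn1* (−0.54), where 7.45% of all genes were called.

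Whether αMARCO acted differently in the 2 genotypes was tested as the difference of the 2 log2 fold changes in a model of all 8 libraries. These libraries also enter the comparisons above, so the difference is not independent of them. For all 10 genes the log2 fold change after αMARCO was lower in WT than in 3d/3d, by a difference of −0.80 ± 0.23 (*Cd83*, at 0.011 in WT and 0.81 in 3d/3d) to −3.24 ± 0.49 (*Ccr7*), with a median of −2.01 against −0.038 over all genes, and none was called. For *Ccr7* the edgeR unadjusted p was 0.000153 and the adjusted p 0.281, for *Fscn1* (−2.49 ± 0.50) they were 0.000947 and 0.284, and for *Cacnb3* (−2.27 ± 0.68) 0.00968 and 0.318. At an unadjusted p under 0.05, edgeR gave 7 of the 10 genes and 2549 of 16620 genes, of which it called 0%. DESeq2 called 208 genes (1.25%), among them these 3, *Ccr7* (adjusted p = 4.46e-07), *Fscn1* (0.000517) and *Cacnb3* (0.0389). With edgeR and no filter on low counts, *Ccr7* was called as well (adjusted p = 0.0382), 1 of 152 genes. Without 3d/3d αMARCO replicate 1, edgeR called *Cd83* (−0.90), *Cd200* (−2.17) and *Apol7c* (−3.02), with 36.4% of all genes called, and without replicate 2 it called *Cd83* (−0.71), with 3.45% of all genes called.

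The 2 WT control libraries differed from each other in these genes by more than counting error. Replicate 1 was above replicate 2 for all 10 genes, by 1.13-fold (*Cd83*) to 2.27-fold (*Slco5a1*), with a median of 1.74. Over 13067 expressed genes the median ratio was 0.998, 49.4% were above 1, and 2.23% reached 1.74 or more. The 95% counting interval was 1.71 to 1.90 for *Ccr7*, 1.80 to 1.97 for *Fscn1*, 1.80 to 2.05 for *Cacnb3* and 1.09 to 1.17 for *Cd83*. A ratio of at least 1.5 was reached by 8 of the 10 genes and by 4.39% of all genes. The size of the spread was not the same for all genes. The counting intervals of *Cd200* (1.14 to 1.60), *Adcy6* (1.37 to 1.69) and *Cd83* ended below that of *Ccr7*. Per kilobase, *Cacnb3* was 0.318 and 0.299 times *Ccr7* in the 2 libraries and *Bcl2l14* 0.0289 and 0.0309 times, while *Cd200* was 0.048 and 0.0643 times and *Cd83* 1.09 and 1.74 times.

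In 3d/3d control, replicate 1 was also above replicate 2 for 8 genes, with a median ratio of 1.80, where 45.8% of all expressed genes were above 1 and 2.01% reached this median, while *Cd83* was at 0.958 and *Apol7c* at 0.374. In WT αMARCO replicate 1 was below replicate 2 for all 10 genes, with a median of 0.682, where 49% of all expressed genes were above 1 and 2.22% were at or below this median. In 3d/3d αMARCO the ratios ran from 0.233 (*Apol7c*) to 3.32 (*Slco5a1*, from 5 and 1 counts), with 5 above 1, as were 47.6% of all expressed genes. Replicate numbers carry no order, so these ratios describe only how far the libraries of a group stood apart.

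**Figure D3:**
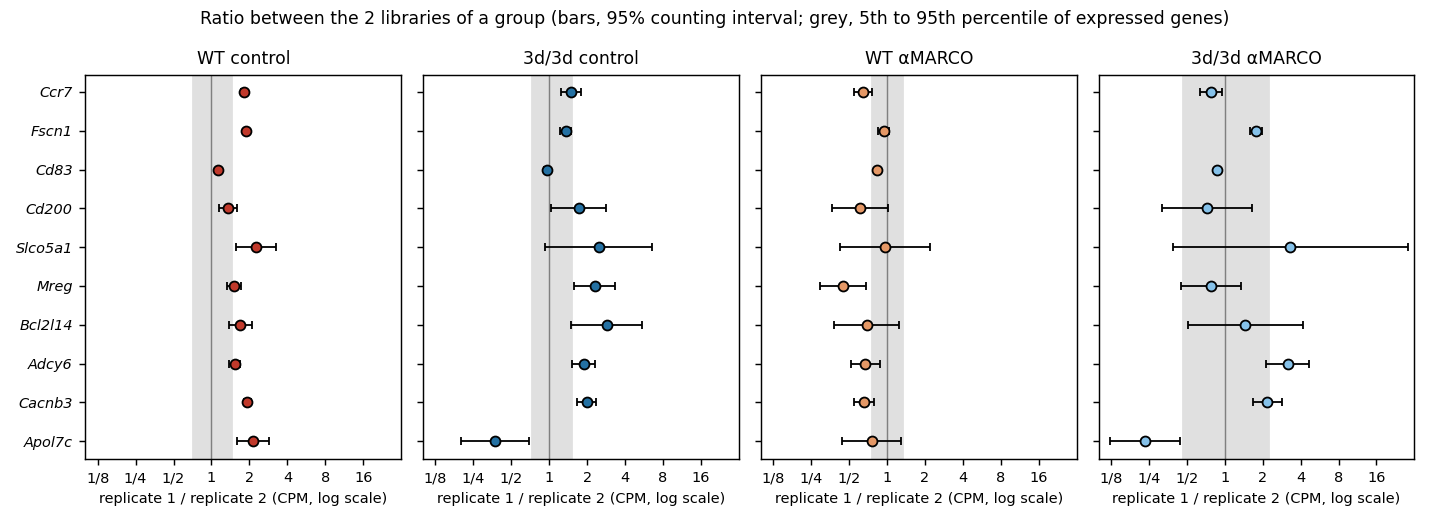
Ratio of replicate 1 to replicate 2 in CPM (horizontal axes, log scale) for the 10 genes in each group, with 95% counting intervals that cover counting error only. Grey bands span the 5th to the 95th percentile of expressed genes. In WT control 9 of the 10 points lie between 1.35 and 2.27 and *Cd83* lies at 1.13.

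The genes were alike in their pattern, apart from *Cd83*. As a description over the 8 libraries, which share their groups, the Pearson correlation of the log2 CPM of a gene with the mean of the other 9 was 0.991 for *Ccr7*, 0.895 to 0.978 for 7 others, 0.738 for *Apol7c* and 0.316 for *Cd83*. Among 16610 other genes, the 10 whose pattern was most like the mean of all 10 were *Serpinb9* (0.993), *Net1*, *Emd*, *Mex3b*, *Idi1*, *Gosr2*, *Insm1*, *Elovl5*, *Syn3* and *Gorasp2* (0.974). *Serpinb9*, an inhibitor of granzyme B, was at 111 and 76.6 CPM in WT control and at 14.5 to 23.3 CPM in the other libraries. *Mex3b* was at 12.8 and 8.31 CPM against 1.76 to 2.96 CPM. *Emd* and *Gosr2* had a similar order but a small range, from 55.9 to 89.4 CPM and from 91.2 to 150 CPM.

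Other genes of DC maturation were followed in lists, described by counts, which stand beside 6.58% of all genes called higher and 6.4% called lower in WT in control TAMs, and 8.91% higher and 11.8% lower after αMARCO in WT. Of 9 chemokines and cytokines, 5 were higher in WT in control TAMs and none lower, with a median log2 fold change of 1.58: *Il12b* (4.99), the p40 chain of IL-12, *Ccl5* (2.54), *Ccl17* (1.58), *Il6* (1.42) and *Ebi3* (0.75). In WT αMARCO 4 of the 9 were lower than in WT control and 1 higher. *Ccl17*, a ligand of CCR4 made by mature DCs, went from 9.95 and 4.77 CPM in WT control to 0.582 and 0.116 CPM in WT αMARCO. Of 11 costimulatory and TNF family genes, 6 were higher and 1 lower in WT control TAMs, *Tnfrsf4* (1.98), *Slamf1* (1.87), *Tnfrsf9* (1.45), *Tnfsf4* (1.31), *Icam1* (0.58) and *Cd40* (0.57) against *Icosl* (−0.63), and after αMARCO 5 were lower and 1 higher in WT.

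Of 11 regulatory genes, 9 were tested and 5 were higher in WT control TAMs, *Ido1*, *Pdcd1lg2* (2.04), which encodes PD-L2, *Tnfaip3* (0.92), *Socs3* (0.86) and *Socs1* (0.67). *Ido1* had 12 and 18 counts in WT control (0.632 and 0.998 CPM). In 3d/3d control it had 1 and 1 counts, under the detection floor of 3, so its log2 fold change of 3.69 is not an exact size. None of the 9 was called lower after αMARCO in WT and 1 was called higher. Of 14 genes of the NF-kB pathway, which drives DC maturation, 8 were higher and none lower, led by *Nfkbia* (1.45), *Traf1* (1.3), *Relb* (0.77), *Nfkb1* (0.74), *Birc2* (0.66) and *Rel* (0.61), and after αMARCO 4 were lower and 1 higher in WT. Of 16 other mature DC genes, 6 were higher and 3 lower in WT control TAMs, with *Serpinb6b* (2.63), *Nudt17* (2.18), *Serpinb9* (2.09), *Stat4* (1.88), *Il4ra* (−1.13) and *Gadd45b* (0.82) the largest, and 8 were lower and 2 higher after αMARCO in WT. Of 10 genes of the cytoskeleton and migration, 4 were higher, *Samsn1* (1.15), *Tmem123* (0.94), *Ezr* (0.71) and *Myo1g* (0.59), and *Adam8* was lower (−0.71), with 3 lower and 1 higher after αMARCO. In the edgeR tests of 3d/3d αMARCO against control and of the genotypes after αMARCO no gene of any list was called.

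The partners of 2 of the genes were looked up. The CCR7 ligands *Ccl19*, *Ccl21a*, *Ccl21b* and *Ccl21c* were not analysed here, and *Ackr4*, a scavenging receptor for them, stayed between 0.0451 and 0.507 CPM. The CD200 receptor *Cd200r1* was at 99.1 and 108 CPM in WT control, 58.8 and 57.9 CPM in 3d/3d control, 61.3 and 58.4 CPM in WT αMARCO, and 33.9 and 40.0 CPM in 3d/3d αMARCO. It was called higher in WT control TAMs (log2 fold change 0.81) and lower after αMARCO in WT (−0.78), as was *Cd200r3* (2.53 and −1.14). *Cd200r4* was not called in either comparison (0.55, adjusted p = 0.112, and −0.50, adjusted p = 0.137, by edgeR), and *Cd200r2* was too low to be tested. Of 28 paralogues of the genes, 18 were tested, and 3 were higher in WT control TAMs, *Apol7e* (2.56), *Bcl2a1b* (1.21) and *Slco3a1* (0.84), while 2 were lower, *Slco2b1* (−1.47) and *Adcy9* (−1.29), with a median of −0.21. *Apol7e*, close in sequence to *Apol7c*, could share reads with it, and how such reads were counted is not given in the sources used here.

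Of 9 antigen presentation genes, all 9 were above 0 in WT over 3d/3d control TAMs but only *H2-Ob* (1.64) and *H2-Oa* (1.49) were called, and the same 2 were called lower in WT after αMARCO. These 2 encode the chains of H2-O, which restrains peptide loading. *H2-Ab1*, a class II beta chain chosen after its values were seen, was at 3351 and 2725 CPM in WT control, 2188 and 2838 CPM in 3d/3d control, 2325 and 2330 CPM in WT αMARCO, and 3325 and 6941 CPM in 3d/3d αMARCO. It was not called in any comparison; after αMARCO in WT its log2 fold change was −0.38 (edgeR adjusted p = 0.0343), under the size needed for a call. The 2 libraries of 3d/3d αMARCO stood far apart in this gene.

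Markers of other cell types were followed in the same way. Conventional DC markers were 2 of 6 higher in WT control TAMs (*Btla*, 1.56, and *Cbfa2t3*, 0.91), and *Zbtb46* was at 28.5 and 14.7 CPM in WT control, 10.5 and 2.33 CPM in 3d/3d control, 2.81 and 3.16 CPM in WT αMARCO, and 3.16 and 1.84 CPM in 3d/3d αMARCO. *Flt3* was at 49.2 and 19.8 CPM, 8.79 and 3.20 CPM, 2.48 and 4.63 CPM, and 3.61 and 0.612 CPM. Both were not called between the genotypes in control TAMs (edgeR adjusted p = 0.322 and 0.167), and after αMARCO in WT 4 of the 6 markers were called lower, among them *Zbtb46* (−2.84). The ratio of replicate 1 to replicate 2 in WT control was 0.987 for *Itgax*, 1.33 for *Cbfa2t3*, 1.47 for *Btla*, 1.58 for *Dpp4*, 1.94 for *Zbtb46* and 2.48 for *Flt3*, and 1.09 for the summed level of the 6 markers. In bulk samples, fewer cells of a type and less RNA per cell cannot be told apart.

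Of the T cell markers, 11 of 12 were higher in WT control TAMs, with a median of 2.75, and all 12 were lower after αMARCO in WT. Their summed level was 116 and 127 CPM in WT control, 21.5 and 10.6 CPM in 3d/3d control, 12.0 and 17.3 CPM in WT αMARCO, and 6.09 and 5.71 CPM in 3d/3d αMARCO. Within WT control the T cell sum was 0.912 times as high in replicate 1 as in replicate 2, while the summed level of the 9 genes without *Cd83* was 1.81 times as high (761 and 421 CPM). NK cell markers were 2 of 6 higher, with sums of 32.7 and 27.2 CPM in WT control and 2.86 to 11.9 CPM elsewhere. Of 6 B cell markers, 3 of them tested, *Cd79b* alone was called (3.89), with the sum at 39.2 and 43.5 CPM in WT control and 4.67 to 20.2 CPM elsewhere. Of cDC1 markers 3 of 7 were higher (*Batf3*, 2.25; *Cadm1*, 1.36; *Xcr1*, 1.06) and of cDC2 markers 3 of 6 (*Cd7*, 3.09; *Irf4*, 1.22; *Klf4*, 0.77), while *Clec9a*, which defines cDC1, stayed at 0.617 to 2.16 CPM.

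Of 10 macrophage markers 1 was higher and 2 lower in WT control TAMs, and their sum ranged from 9566 to 13695 CPM. Of 6 epithelial or tumor markers, 3 of them tested, none was called in control TAMs, and their sum was 106 and 52.3 CPM in WT control, 59.0 and 49.2 CPM in 3d/3d control, 30.9 and 32 CPM in WT αMARCO, and 70.4 and 69.1 CPM in 3d/3d αMARCO. None of 3 tested plasmacytoid DC markers was called. Of 6 neutrophil markers none was called in control TAMs, with sums of 205 to 360 CPM over the 8 libraries. This sum was mostly *Csf3r*, at 193 to 357 CPM. In WT control *S100a9* was at 24.4 and 7.59 CPM, *S100a8* at 11.9 and 4.88 CPM and *Cxcr2* at 2.42 and 0.554 CPM. *Csf3r* was at 262 and 279 CPM there. Of 5 classical monocyte markers 1 was lower, and of 5 fibroblast markers 2 were lower. Of 4 endothelial markers 1 was higher, and their sum was 285 and 290 CPM in WT control, 124 and 96.3 CPM in 3d/3d control, 191 CPM in both WT αMARCO libraries, and 107 and 87.6 CPM in 3d/3d αMARCO. The sum followed *Pecam1*, also known from myeloid cells and the one called (203 and 199 CPM in WT control, 28.9 and 24.1 CPM in 3d/3d control), while *Cdh5* (−0.42) and *Kdr* (0.080) were not called. Between the WT control libraries, the epithelial or tumor sum was 2.02 times as high in replicate 1, where *Cdh1* was 4.19 times as high and *Krt8* was at 42.3 and 33.9 CPM. The monocyte sum was 1.66 times as high, with *Chil3* 6.92 times as high. After αMARCO in WT, the markers called lower were 2 of 4 tested for neutrophils, 3 of 5 for fibroblasts, 2 of 4 for endothelium, 2 of 3 for epithelium or tumor, 3 of 6 for NK cells, 1 of 3 for B cells, 4 of 7 for cDC1, 2 of 6 for cDC2 and 4 of 10 for macrophages. Of the macrophage and the classical monocyte markers 1 each was called higher, and of the 3 plasmacytoid DC markers none was called. The part that any of these cell types had in the levels of the 10 genes was not tested.

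**Figure D4:**
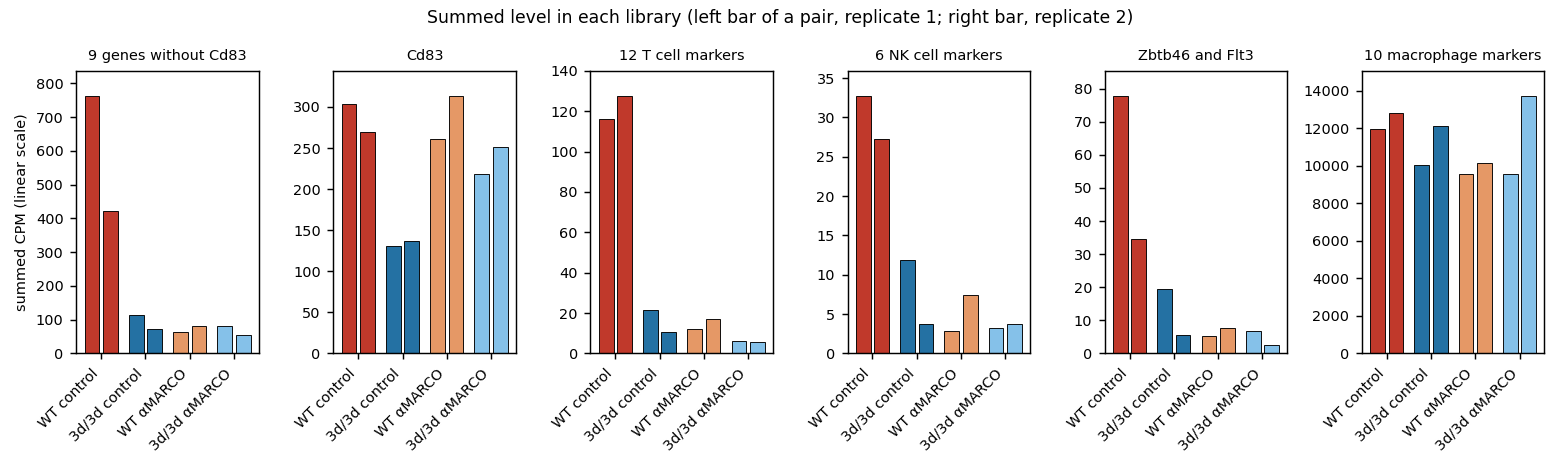
Summed CPM (vertical axes, linear scale from 0, a separate range for each panel) in each library for the 9 genes without *Cd83*, for *Cd83*, for T cell, NK cell and macrophage markers, and for *Zbtb46* with *Flt3*. In each pair of bars the left is replicate 1. The 9 genes were at 761 and 421 CPM in WT control and at 53.6 to 113 CPM elsewhere, and macrophage markers were at 9566 to 13695 CPM throughout.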

How the data were processed

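Poly-A mRNA of sorted TAMs was sequenced. Per the labels and the study's methods, the authors cleaned reads with fastp, aligned them to GRCm38 (HISAT2 2.0.5) and obtained gene counts (featureCounts 1.5.0), with no strand setting given in the sources used here. The deposited tables hold raw counts, the authors' FPKM (length and library scaled), a normalized signal (counts divided by size factors), and the authors' own DESeq2 1.40.2 log2 fold changes and p-values, which were neither used nor printed. Only the deposited counts were analysed. The 3 tables were joined by gene identifier, and 95230 counts stood in more than 1 table, of which 0 differed. A gene that was listed nowhere for a library was set to 0 in that library.

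Tests used edgeR 4.0.16 in R 4.3.3 (TMM, filterByExpr, robust quasi-likelihood fit, Benjamini-Hochberg adjustment over all genes tested) on the 4 libraries of each comparison, and on 8 libraries in a model of 4 groups for the difference of the αMARCO effects. Levels are CPM with TMM factors over 8 libraries, and log2 CPM used a prior count of 2. The procedure was tested on simulated data. Alternatives were DESeq2 1.42.0, its size factors in edgeR, no filter, at least 10 counts in every library, 8 libraries in 1 model, the replicate number as a block, other fold change thresholds, and each library left out. At these depths 3 counts are 0.116 to 0.204 CPM; intervals and floors cover counting error only. Positions matched GENCODE M21 for the genes described. Members and lists were chosen with earlier results of these data known. From a list, up to 6 called genes with the largest absolute log2 fold change in control TAMs are named, plus ligands, receptors and defining cell markers. Genes chosen after their values were seen are named too (*H2-Ab1*, *Clec9a*, *Pecam1*, *Cdh5*, *Kdr*, *Cdh1*, *Krt8*, *Chil3*, *Cd209a*, *Clec10a*, *Mgl2*, *Csf3r*, *S100a8*, *S100a9*, *Cxcr2*). Motifs were searched in the RefSeq promoter table.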

Additional observations from a re-analysis of the deposited data

How the results depend on the processing

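Of 514 values that the alternatives gave for the fold changes of the 10 genes, 453 kept their direction and their side of the threshold, 24 gained and 23 lost significance, and 14 reversed. The number of the 10 genes called in control TAMs was 7 to 10 under the planned settings and 6 to 9 with a library left out, and in WT after αMARCO 6 to 9 in both. With at most 2 libraries a group, the number of libraries limits every value, and depth limits genes near 3 counts, such as *Slco5a1*.

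For all genes, WT against 3d/3d control gave 951 calls where the log2 fold change had to reach 1 in size and 364 with 8 libraries in 1 model, in place of 2025 (1493 to 2232 with a library left out). WT αMARCO against control gave 5487 without a fold change threshold, 1366 at a size of 1 or more and 164 with 8 libraries in 1 model, in place of 3236 (1940 to 3951 with a library left out, the lowest without WT αMARCO replicate 1). In place of 0, the genotypes after αMARCO gave 215 with DESeq2, 107 without a filter and 108 with 8 libraries (17 to 6366 with a library left out, and 0 to 2 of the 10 genes). αMARCO in 3d/3d gave 60, 174 and 1 under the same settings (1 to 5500, and 0 to 4 of the 10 genes). The difference of the αMARCO effects gave 208 with DESeq2, 3 of them among the 10 genes, and 152 without a filter, 1 of them *Ccr7* (0 to 6440 with a library left out, and 0 to 3 of the 10 genes). The highest values all came without 3d/3d αMARCO replicate 1 for the comparisons with that group. The cause was not tested.

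Same-numbered libraries deviated together with correlations of −0.00098 to 0.14. With 2 libraries a group, these values cannot settle whether the replicate numbers pair the samples. With the replicate number as a block, 9 of the 10 genes were called in control TAMs and 7 in WT after αMARCO. In either direction, 2395 of 15600 genes and 3086 of 15630 genes were called in these comparisons. Between the genotypes after αMARCO 97 genes were called, and 5 in 3d/3d after αMARCO.

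Reversed values all belong to fold changes that were not called. For *Apol7c* in 3d/3d after αMARCO they were −0.044 with at least 10 counts in every library, −0.016 with 8 libraries in 1 model and −0.092 with the replicate block (−1.36 to 0.92 with a library left out). With a library left out, *Fscn1* there ranged from −0.59 to 0.23, and *Cd83* in WT after αMARCO from −0.13 to 0.14. Between the genotypes after αMARCO the ranges were −0.00074 to 0.65 for *Ccr7*, −0.35 to 1.31 for *Adcy6*, −0.54 to 0.30 for *Fscn1* and −1.07 to 1.02 for *Apol7c*.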
